A study of Homo sapiens with 3 samples.

Results

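The mRNAs of 10 genes of the BCL2 family were followed through a pull-down experiment in which J82 cells, a human bladder cancer line, were lysed and their RNA recovered with 1 of 3 proteins. The bait was wild-type ZFP36L1 fused to glutathione S-transferase (GST), the Ala mutant of ZFP36L1 fused to GST, or GST alone as the control. The labels do not say which residues became alanine. All the J82 cells were lysed near confluence with no other treatment named, and each protein has 1 library, so there is no replicate check of any difference and no p-value is given.

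The genes were taken by symbol: 3 anti-apoptotic members (MCL1, BCL2 and BCL2L1) and 7 pro-apoptotic members (BCL2L11, BAX, BAK1, BAD, BID, PMAIP1 and BBC3), out of 52989 genes with a transcript in the deposited tables. GENCODE 29 assigned 74 transcripts to them, whose estimated counts were summed per gene. All 10 averaged 10 counts or more across the libraries, the minimum for calling a gene measured, as did 14081 genes in all. Of the 74 transcripts, 27 reached that minimum themselves and 30 stood at 0 in every library.

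Proteins of this family decide whether the outer mitochondrial membrane is opened during apoptosis. BAX and BAK1 form the pores that release cytochrome c. MCL1, BCL2 and BCL-XL, the long product of BCL2L1, hold them in check, and the BH3-only proteins, such as BIM (BCL2L11), NOXA (PMAIP1), PUMA (BBC3), BAD and BID, relieve that restraint or activate the pore formers. ZFP36L1 is a zinc finger protein that binds AU-rich elements in the 3' untranslated regions (3' UTRs) of mRNAs, with UAUUUAU as its core site, and promotes decay of the mRNA. MCL1 and NOXA are short-lived proteins.

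The core site was searched on the transcript strand of the GENCODE 29 3' UTR, overlaps counted, in the coding transcript of each gene whose mean TPM was highest (a level corrected for transcript length and library size). It was found in 31.03% of the 11443 measured genes with an annotated 3' UTR. In this family MCL1 held 3 sites, PMAIP1 held 3, and BCL2 and BCL2L1 held 1 each, whereas BAX, BAK1, BAD, BID and BBC3 held none. The rule took for BCL2L11 a transcript of 425 bases with no site, but 81.5% to 90.9% of its counts were assigned to a transcript of 5086 bases, BCL2L11-206, whose 3' UTR of 4216 bases held 2. That longer transcript was looked at after the values were seen. The windows below show every site, with 10 bases on either side in lower case and the core site in capitals, since these are the candidate contacts of the bait in the family. A match is a description of the letters and not evidence of binding.
MCL1 site 1: ccucuacagaUAUUUAUaucaauuccu
MCL1 site 2: uuuaccuaugUAUUUAUcguucuugau
MCL1 site 3: auaagccgcuUAUUUAUaucauguauc
PMAIP1 site 1: ggaauaauuuUAUUUAUuuugccuauu
PMAIP1 site 2: uuauuuugccUAUUUAUaauuaaagua
PMAIP1 site 3: uaccaucuggUAUUUAUggucuaauuu
BCL2 site 1: aaaaaagauuUAUUUAUuuaagacagu
BCL2L1 site 1: agcgugucugUAUUUAUgugugaggag
BCL2L11-206 site 1: auauugugagUAUUUAUuagauucgua
BCL2L11-206 site 2: aaauauuguaUAUUUAUuuucugcuua

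The PMAIP1 sites 1 and 2 began at bases 1219 and 1232 of a 3' UTR of 1553 bases, so that their windows overlap, and site 3 began at base 1467, near its end. The MCL1 sites began at bases 1551, 2166 and 2194 of 2819. The BCL2 site began at base 255 of 5279, and the BCL2L1 site at base 1250 of 1497. The longer motif UUAUUUAUU, found in 8.19% of the 3' UTRs, was present once in PMAIP1 (site 1) and once in BCL2. The shorter AUUUA, found in 67.85%, occurred 13 times in BCL2, 10 times in MCL1, 5 times in PMAIP1, 8 times in BCL2L11-206, 3 times in BCL2L1 and 2 times in BID, and was missing from the 3' UTRs taken for BAX, BAK1, BAD and BBC3.

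The libraries held 19845386 estimated counts for wild-type ZFP36L1, 19153483 for the Ala mutant and 19137867 for GST. Mitochondrial genome transcripts took 15.5%, 7.53% and 10.6% of the gene counts, in that order of baits. The bait's own mRNA, ZFP36L1, had 35580 counts with the wild-type protein, 2401 with the mutant and 3012 with GST. Of 14 urothelial and epithelial markers 6 were measured, keratins KRT7, KRT8 and KRT18 among them, while the urothelial keratins KRT5 and KRT20 and uroplakin UPK3A stood at 0 in all 3 libraries. Of 7 mesenchymal markers 5 were measured, with VIM the most abundant. Of 8 leukocyte markers 1 was measured, LYZ at 7 to 13 counts, and no erythroid or hepatocyte marker was. With no input library used here, the level of an mRNA in the lysate and its recovery by the bait cannot be told apart, nor can fewer cells that hold it and less of it per cell.

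When wild-type ZFP36L1 was set against GST, to ask what the bait recovers beyond the background, members lay on both sides. The higher ones came from both the survival and the death roles, and many of all measured genes were also called either way. Higher with wild-type ZFP36L1 were MCL1, BCL2, BCL2L11, BID and PMAIP1. Lower were BAK1, BAD and BBC3, and BCL2L1 and BAX lay within 2-fold. The call required a 2-fold difference or more between libraries scaled by TMM (trimmed mean of M values), with 1 outside the 95% Clopper-Pearson counting interval. Such intervals cover counting error only, not the spread between pull-downs or error in assigning reads to transcripts. They can be too narrow even for that, since PCR reads without molecular identifiers are not independent molecules. Each ratio sets shares of libraries, not amounts of RNA, against each other. By that rule 5 of the 10 members were higher, against 25.5% of all measured genes, and 3 of 10 were lower, against 34.2%. The count of lower members is near that share. The median log2 ratio of the 10 members was 0.51, beside -0.04 for all genes. Among the anti-apoptotic members 2 of 3 were higher and none lower (median 1.15), and among the pro-apoptotic members 3 of 7 were higher and 3 of 7 lower (median -0.12).

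**Figure D1:**
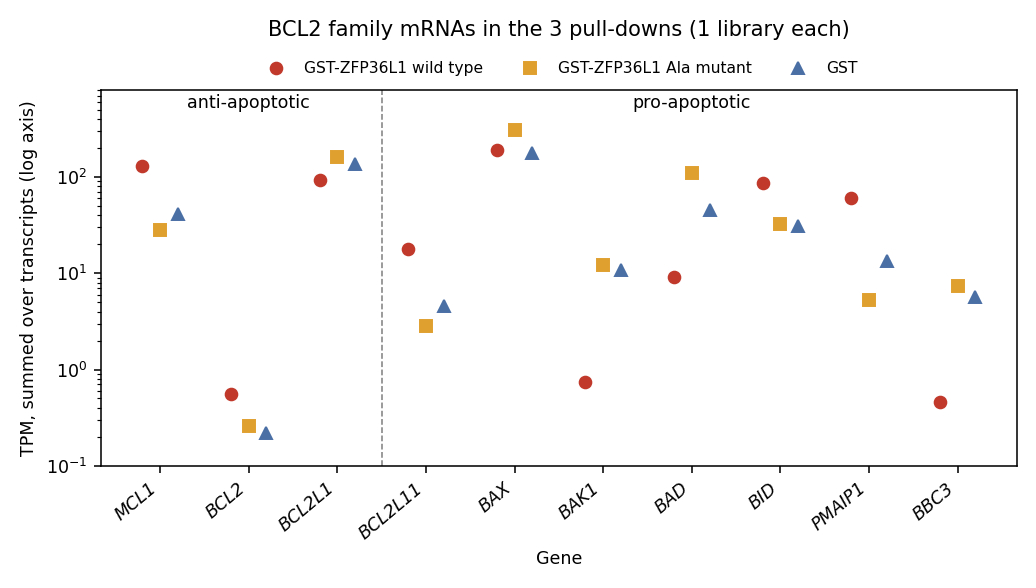
TPM of each BCL2 family gene, summed over its transcripts (log axis), with wild-type ZFP36L1 (circles), the Ala mutant (squares) and GST (triangles), 1 library each; the dashed line parts the anti-apoptotic from the pro-apoptotic members. MCL1, BCL2, BCL2L11, BID and PMAIP1 are highest with the wild-type protein, whereas BCL2L1, BAK1, BAD and BBC3 are lowest with it.

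The anti-apoptotic member MCL1 (ENSG00000143384, chromosome 1, 150574551 to 150579738 of GRCh38, minus strand) had 11094 counts with wild-type ZFP36L1, 2901 with the Ala mutant and 3789 with GST. The wild-type library stood well above the other libraries, which lay near each other. MCL1 with wild-type ZFP36L1 was 2.77-fold above GST (log2 1.47, 1.41 to 1.52) and 3.28-fold above the mutant (log2 1.71, 1.65 to 1.77). Every count of the gene was assigned to MCL1-202, whose product of 350 residues is the long, protective form. MCL1-201, which encodes 271 residues, the short form that promotes death, had 0 counts in each library.

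BCL2 (ENSG00000171791, chromosome 18, 63123346 to 63320128, minus strand), the founding member of the family, had the fewest counts of the 10 with the mutant and with GST, whereas with wild-type ZFP36L1 BAK1 and BBC3 had fewer. It had 92 counts with wild-type ZFP36L1 (exact Poisson interval 74.2 to 112.8), 27 with the mutant (17.8 to 39.3) and 39 with GST (27.7 to 53.3). The wild-type interval did not overlap the others, and those for mutant and GST overlapped. The ratio of wild type to GST was 2.21 (log2 1.15, 0.60 to 1.74), and that of wild type to mutant was 2.88 (log2 1.53, 0.91 to 2.22). The lower bounds of both ratios lie under 2-fold.

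BCL2L1 (ENSG00000171552, chromosome 20, 31664452 to 31723989, minus strand) differed as measured from the other anti-apoptotic members. It had 4657 counts with wild-type ZFP36L1, 9703 with the mutant and 7402 with GST, so the wild-type library was the lowest. The ratio of wild type to GST was log2 -0.75 (-0.80 to -0.70), a 1.68-fold difference within the 2-fold limit. With a fit on GC content and transcript length removed it turned to 0.58, beside 0.90 for MCL1 and 0.55 for BCL2. Against the mutant BCL2L1 was 2.43-fold lower with the wild-type protein (log2 -1.28, -1.33 to -1.23). That ratio was -0.96 when libraries were scaled to totals without the mitochondrial and 20 most abundant genes. In TPM it was -0.78, and both fell short of 2-fold. With that fit removed it turned to 0.35, beside 0.91 for MCL1 and 0.66 for BCL2.

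The transcripts of BCL2L1 bear on its place among the survival genes. The tables assigned 98.9% of its counts with wild-type ZFP36L1, 93.0% with the mutant and 93.7% with GST to BCL2L1-202, which encodes a product of 170 residues. That is the length of BCL-XS, a splice form that promotes death, whereas BCL-XL has 233. The transcripts for 233 residues took the rest: BCL2L1-203 had 49, 273 and 307 counts with wild type, mutant and GST, and BCL2L1-201 had 0, 403 and 156. In GENCODE 29 only 28 of the 2353 31-base words of BCL2L1-202 (1.19%) occur in no other transcript of the gene, so nearly all of its reads could also have come from the longer forms. The tables give no error for this split, and its accuracy was not tested. Of the 31-base words of BCL2L1-202, 29.28% also occur in the antisense RNA ABALON, and whether the reads were counted by strand is not given in the sources used here. ABALON had no matched transcript in the deposited tables and so no counts here. The part of ABALON reads in the BCL2L1 values was not tested.

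Of the BH3-only death genes, PMAIP1 and BCL2L11 were higher with wild-type ZFP36L1 in both comparisons. PMAIP1 (ENSG00000141682, chromosome 18, 59899948 to 59904306, plus strand) encodes NOXA, a small protein of 54 residues that binds MCL1 and promotes its degradation. It had 2415 counts with wild-type ZFP36L1, 255 with the mutant and 588 with GST. It was 3.88-fold higher with wild type than with GST (log2 1.95, 1.83 to 2.09) and 8.10-fold higher than with the mutant (log2 3.02, 2.83 to 3.21), at the 94.1 percentile of all genes in the first of these comparisons. All its counts were assigned to 1 transcript, PMAIP1-202, the one with the 3 sites shown above.

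BCL2L11 (ENSG00000153094, chromosome 2, 111119378 to 111168447, plus strand) encodes BIM, which binds all the protective proteins of the family. It had 580 counts with wild-type ZFP36L1, 139 with the mutant and 129 with GST. The mutant and GST libraries differed by less than counting error (log2 0.25, -0.11 to 0.61), and wild type stood 4.23-fold above GST (log2 2.08, 1.81 to 2.37) and 3.57-fold above the mutant (log2 1.83, 1.57 to 2.12). Most counts, 502, 126 and 105 for wild type, mutant and GST, went to BCL2L11-206, which encodes 198 residues, the length of the BIM-EL form. The short BCL2L11-207 had 69, 8 and 19 counts, and none of its 31-base words is unique to it, yet by TPM it was the more abundant in each library. Its TPM was 12.5, 1.27 and 3.12 with wild type, mutant and GST, against 4.54, 0.949 and 0.872 for BCL2L11-206.

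BID (ENSG00000015475, chromosome 22, 17734138 to 17774770, minus strand), which couples death receptors to mitochondria, was higher with the wild-type protein, and its 3' UTR held no UAUUUAU. It had 3380 counts with wild-type ZFP36L1, 1350 with the mutant and 1382 with GST. That made it 2.31-fold higher with wild type than with GST (log2 1.21, 1.12 to 1.30) and 2.15-fold higher than with the mutant (log2 1.10, 1.01 to 1.19). BID-203 had 2881, 712 and 621 counts with wild type, mutant and GST, a ratio of wild type to GST of log2 2.13 (2.01 to 2.26). BID-204 had 459, 410 and 700 counts, and its ratio of wild type to GST was log2 -0.69 (-0.86 to -0.52). Both encode the same length of product, 99 residues, and only 27 of the 1849 31-base words of BID-203 (1.46%) and none of BID-204 are unique to them, so the split rests on few distinguishing reads. BID-205, with the 195 residues of full-length BID, had 26, 103 and 0 counts.

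BAD and BBC3 went the other way. BAD (ENSG00000002330, chromosome 11, 64269830 to 64284704, minus strand), whose product frees the pore formers by binding BCL2 and BCL-XL, had 153 counts with wild-type ZFP36L1, 2267 with the mutant and 847 with GST. The 3 libraries were well apart, with wild type the lowest and the mutant the highest. BAD was 5.85-fold lower with wild type than with GST (log2 -2.55, -2.81 to -2.30) and 17.2-fold lower than with the mutant (log2 -4.11, -4.36 to -3.88). Neither call held with the fit on GC content and length removed, which left 0.28 against GST and -0.37 against the mutant. Of the 31-base words of BAD-201, 28.59% also occur in transcripts of GPR137, a gene on the opposite strand, which had 256, 1650 and 1428 counts with wild type, mutant and GST. The part of GPR137 reads in the BAD values was not tested.

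BBC3 (ENSG00000105327, chromosome 19, 47220822 to 47232766, minus strand) encodes PUMA, a p53-induced activator of apoptosis. It had 12 counts with wild-type ZFP36L1 (Poisson interval 6.2 to 21.0), 247 with the mutant and 166 with GST. The wild-type interval lay far below both other values. The ratio of wild type to GST was 14.1-fold lower (log2 -3.82, -4.85 to -3.03), and to the mutant 23.1-fold lower (log2 -4.53, -5.56 to -3.76). Thus PMAIP1 and BBC3, which share the role of p53-induced BH3-only gene, lay at opposite ends: the ratio of their TPM, PMAIP1 over BBC3, was 133 with wild type, 0.713 with the mutant and 2.40 with GST.

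The pore formers differed too. BAK1 (ENSG00000030110, chromosome 6, 33572547 to 33580293, minus strand), which sits in the outer mitochondrial membrane, had 32 counts with wild-type ZFP36L1 (Poisson interval 21.9 to 45.2), 636 with the mutant and 513 with GST. It was 16.7-fold lower with wild type than with GST (log2 -4.06, -4.65 to -3.57) and 22.9-fold lower than with the mutant (log2 -4.51, -5.10 to -4.02), at the 3.2 percentile of all genes against GST. Of the 31-base words of BAK1-203, 18.42% also occur in other genes, the pseudogenes BAK1P1, BAK1P2 and GGNBP1, each with 0 counts in each library. BAK1-203 encodes 153 residues and took all the BAK1 counts with wild type and GST. BAK1-202, which encodes the 211 residues of full-length BAK, had 0, 206 and 0 counts with wild type, mutant and GST, and none of its 31-base words is unique to it.

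BAX (ENSG00000087088, chromosome 19, 48954815 to 48961798, plus strand), which moves to mitochondria when activated, was the most abundant member by TPM in each library. It had 2591 counts with wild-type ZFP36L1, 4425 with the mutant and 2665 with GST, so wild type and GST were close and the mutant stood above them. The log2 ratio of wild type to GST was -0.12 (-0.20 to -0.04) and turned to 0.12 in TPM. Against the mutant it was -0.99 (-1.07 to -0.92), just inside 2-fold. With only transcripts annotated as protein-coding it was -1.04 and with a minimum of 100 counts -1.03, both just past it. With the fit on GC content and length removed it was 1.84, past 2-fold in the opposite direction.

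The transcripts of BAX differed from its total. BAX-205, with a product of 175 residues, had 1867, 1731 and 571 counts with wild type, mutant and GST, a ratio of wild type to GST of log2 1.63 (1.49 to 1.76). BAX-201, with 218 residues, had 559, 1718 and 1521 counts, a ratio of wild type to GST of log2 -1.53 (-1.67 to -1.39). Between mutant and GST, BAX-205 differed by log2 1.74 (1.60 to 1.88) and BAX-201 by 0.32 (0.22 to 0.42). The share of BAX counts given to BAX-205 was 72.1% with wild type, 39.1% with the mutant and 21.4% with GST. Of the 31-base words of BAX-205, 8.07% occur in no other BAX transcript, and of BAX-201, 27.33%. BAX-209, of 383 bases, had 61, 656 and 214 counts with wild type, mutant and GST, and no 31-base word unique to it. BAX-205 is 735 bases long in the deposited tables and 687 in GENCODE 29, so that its 3' UTR here may differ from the one quantified.

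**Figure D2:**
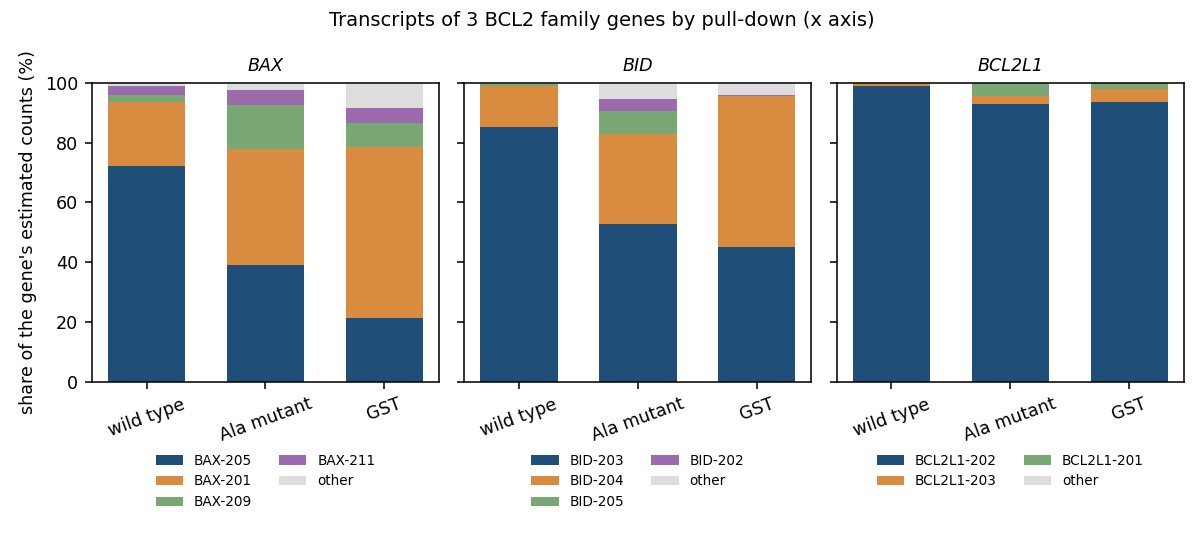
Share of the estimated counts of BAX, BID and BCL2L1 (y axis, percent) assigned to their 4 most counted transcripts (3 for BCL2L1) and to all others, with wild-type ZFP36L1, the Ala mutant and GST on the x axis, 1 library each. BAX-205 took 72.1% of BAX counts with wild type against 21.4% with GST, BID-203 took 85.3% of BID counts against 45.0%, and BCL2L1-202 took 98.9% of BCL2L1 counts against 93.7%.

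Wild type was then set directly against the mutant, to ask what changes with the substitution, in libraries that share a run code in the names of the deposited tables, whereas GST carries another. Run and bait therefore cannot be told apart wherever GST is one side of a ratio. As measured, 5 of 10 members were higher with wild type, against 30.1% of all genes, and they were MCL1, BCL2, BCL2L11, BID and PMAIP1 again. BCL2L1, BAK1, BAD and BBC3, 4 of 10, were lower, a count near the 36.0% of all genes. The median of the 10 was log2 0.05, beside -0.04 for all genes, and ran from -4.53 for BBC3 to 3.02 for PMAIP1. The comparisons with GST and with the mutant share the wild-type library, so the same sides in both are not separate evidence. With the fit on GC content and length removed 5 of the 10 calls changed: MCL1 (0.91), BCL2 (0.66), BCL2L1 (0.35) and BAD (-0.37) came within 2-fold, and BAX (1.84) became higher. BCL2L11 (2.46), BID (1.01) and PMAIP1 (1.64) stayed higher, and BAK1 (-2.42) and BBC3 (-1.74) stayed lower. When the fit used the transcript with the most counts, BCL2L11 was at 1.09.

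**Figure D3:**
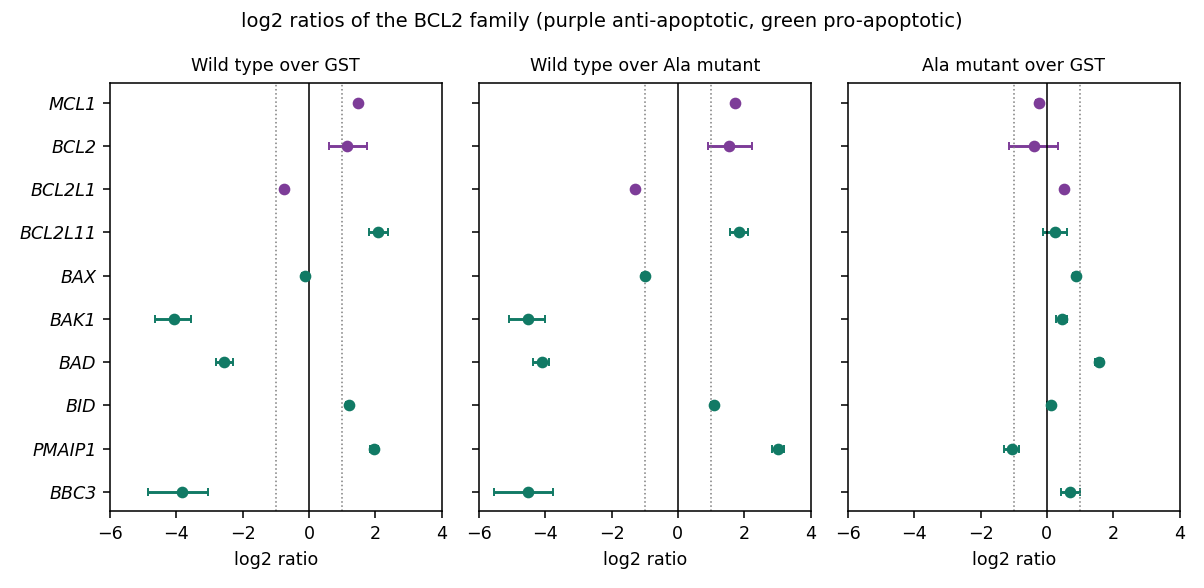
log2 ratio of each BCL2 family gene (x axis) for wild-type ZFP36L1 over GST, wild type over the Ala mutant, and the Ala mutant over GST, with 95% counting intervals as bars; dotted lines mark 2-fold either way, and the 3 anti-apoptotic genes are purple. The members spread from -4.53 to 3.02 in the comparisons with wild type and from -1.06 to 1.56 for the mutant over GST.

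The mutant was set against GST to ask what the altered protein still recovers. With the mutant 1 of 10 members was higher, BAD (2.95-fold, log2 1.56, 1.45 to 1.68), against 9.01% of all genes. PMAIP1 was the 1 member lower (2.09-fold, log2 -1.06, -1.28 to -0.85), against 5.13% of all genes, and its ratio fell short of 2-fold (log2 -0.99) with protein-coding transcripts only. Both counts are near those shares. The median of the members was 0.35, beside 0.04 for all genes. MCL1 (log2 -0.24, -0.32 to -0.17) and BCL2 (log2 -0.38, -1.15 to 0.35) lay slightly under 0, and BCL2L1 (log2 0.53), BAX (log2 0.87), BAK1 (log2 0.45) and BBC3 (log2 0.71) above it. BCL2L11 was at 0.25 from counts and -0.61 in TPM, and BID at 0.11, but -0.11 with totals without the mitochondrial and 20 most abundant genes, so the sign of both depends on the scaling.

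By TPM the order of the family changed with the bait. With wild-type ZFP36L1 it ran BAX (192), MCL1 (131), BCL2L1 (93.7), BID (86.6), PMAIP1 (60.6), BCL2L11 (17.7), BAD (9.05), BAK1 (0.739), BCL2 (0.560) and BBC3 (0.456). With the mutant it ran BAX (307), BCL2L1 (161), BAD (111), BID (32.5), MCL1 (28.5), BAK1 (12.1), BBC3 (7.45), PMAIP1 (5.32), BCL2L11 (2.81) and BCL2 (0.261). With GST it ran BAX (176), BCL2L1 (136), BAD (46.0), MCL1 (41.1), BID (30.8), PMAIP1 (13.5), BAK1 (10.8), BBC3 (5.64), BCL2L11 (4.56) and BCL2 (0.217). MCL1 thus came ahead of BCL2L1 only with the wild-type protein, where the ratio of their TPM, MCL1 over BCL2L1, was 1.40, against 0.177 with the mutant and 0.302 with GST. Neighbours such as BAK1, BCL2 and BBC3 with wild type rest on 32, 92 and 12 counts, and their order is within counting error.

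Summed by gene over their roles, the 3 anti-apoptotic members summed to 225 TPM with wild type, 190 with the mutant and 177 with GST. The 7 pro-apoptotic members summed to 367, 478 and 287 TPM. Of these, 13.2, 119 and 42.6 TPM were assigned to BAX-209, a transcript with no 31-base word unique to it. The anti-apoptotic over the pro-apoptotic sum was 0.615 with wild type, 0.398 with the mutant and 0.618 with GST. These sums count BCL2L1 as a survival gene, although 92.8, 151 and 128 of its TPM with wild type, mutant and GST were assigned to BCL2L1-202, the transcript for 170 residues. With that transcript counted on the death side, a choice made after its values were seen, the ratio was 0.288 with wild type, 0.0616 with the mutant and 0.119 with GST. MCL1 supplied 22.2% of the family's TPM with wild type, 4.27% with the mutant and 8.85% with GST. PMAIP1 supplied 10.2%, 0.796% and 2.91%, and BAD 1.53%, 16.6% and 9.90%.

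The members on either side differed in base composition, which moved with the ratios over the whole data set. Across the 14081 measured genes, those of higher GC content had lower ratios of wild type to GST (Spearman rho -0.59 across genes, which share their libraries and are not independent replicates), and higher ratios of mutant to GST (rho 0.54). The 5 members higher with wild type had the lowest GC content of the family, 37.2% for PMAIP1, 45.1% for MCL1, 45.6% for BCL2, 46.1% for BCL2L11 and 46.7% for BID. The others lay at 56.6% for BCL2L1, 58.7% for BAX, 58.8% for BAK1, 60.9% for BBC3 and 65.8% for BAD. The part of base composition in the single ratios was not tested. The median log2 ratio of wild type to GST was 0.94 for the 3551 genes with UAUUUAU and -0.68 for the 7892 without it. That site holds no G or C, so recovery by such sites and base composition cannot be told apart here. A fit on GC content can remove either.

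When a cubic fit of the ratios on GC content and transcript length was removed, the log2 ratio of wild type to GST was 0.90 for MCL1 and 0.55 for BCL2, both short of 2-fold, and PMAIP1 just missed it, but was at 1.05 when the fit used the transcript with the most counts. It was 2.54 for BCL2L11 and 1.16 for BID, which stayed past it. BAK1 (-2.38) and BBC3 (-1.63) stayed lower, BAD turned to 0.28 and BCL2L1 to 0.58, and BAX, near 0 as measured, stood at 2.08. In that second form of the fit BCL2L11 was at 1.56. The difference of the medians, anti-apoptotic minus pro-apoptotic members, was 1.27 as measured and -0.42 with the fit removed.

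**Figure D4:**
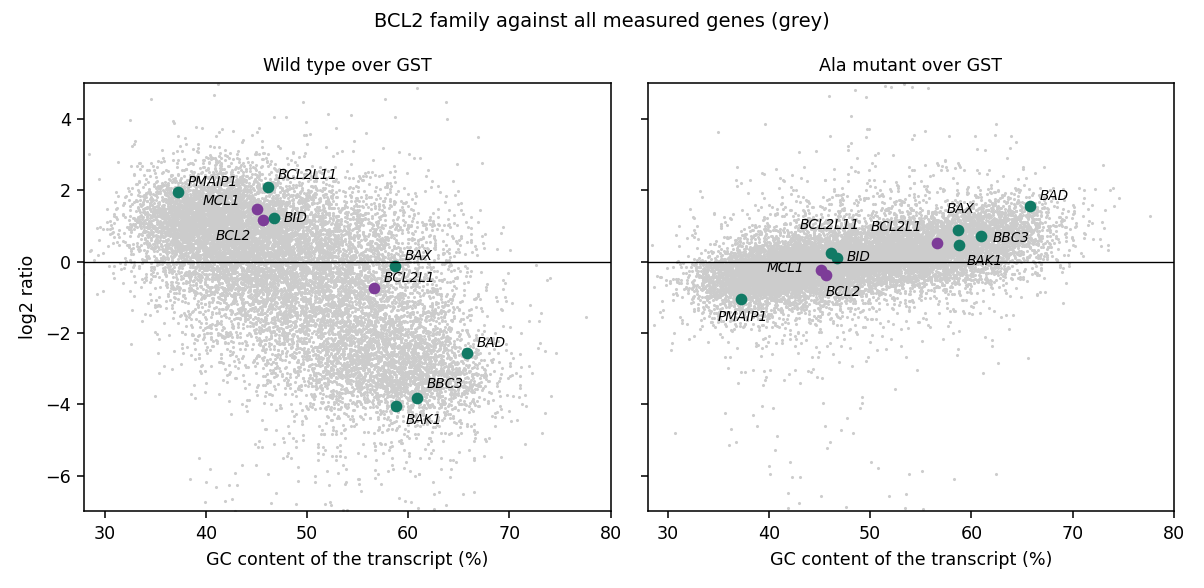
log2 ratio (y axis) against the GC content of the most abundant transcript (x axis, percent) for all measured genes (grey) and the BCL2 family (purple anti-apoptotic, green pro-apoptotic), for wild-type ZFP36L1 over GST and the Ala mutant over GST; 72 and 42 genes lie outside the axes. PMAIP1, at 37.2% GC, is among the highest of the family with wild type (log2 1.95) and the lowest with the mutant (log2 -1.06), and BAD, at 65.8%, is low with wild type (log2 -2.55) and the highest with the mutant (log2 1.56).

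Of the other anti-apoptotic relatives, BCL2A1 and BCL2L2 were measured and BCL2L10 was not. Both measured genes were higher with wild type than with GST (25.5% of all genes) and than with the mutant (30.1% of all genes). BCL2A1, an NF-kB target that protects leukocytes, had 544 counts with wild type, 116 with the mutant and 84 with GST, a ratio of wild type to GST of 6.09 (log2 2.61, 2.28 to 2.96). BCL2L2, which encodes BCL-W, had 1060, 263 and 429 counts, a ratio of 2.33 (log2 1.22, 1.06 to 1.39). Of 6 other pro-apoptotic relatives 5 were measured, and against GST 0 were higher with wild type (25.5% of all genes) and 2 lower (34.2% of all genes), with a median of -0.88. BOK, a pore-forming relative of BAX, was 8.55-fold lower (log2 -3.10, -3.36 to -2.85), but within 2-fold with the fit on GC content and length removed (-0.76). BNIP3L (log2 0.51) and BNIP3 (log2 -0.14), which mark mitochondria for mitophagy, and BIK (log2 -0.88, -2.27 to 0.35) lay within 2-fold. BMF, a BH3-only gene named here after its values were seen, is the other lower gene. It had 0 counts with wild type, 0 with the mutant and 34 with GST. BMF passed the minimum mean count through its GST library alone. A gene with no counts elsewhere can pass only by being high with GST, so its lower call was set by that minimum. That call is included in the 2 lower, and BMF in the median, given above. Of 4 further BCL2-related genes 2 were measured, BCL2L12 lower (log2 -1.88, but -0.68 with the fit removed) and BCL2L13 within 2-fold (log2 0.74).

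Downstream of the mitochondria, of 15 apoptosome and caspase genes, wild type stood higher than GST for 4 and lower for 5, with a median of 0.14 beside -0.04 for all genes. Both counts are near the shares of all genes, 25.5% higher and 34.2% lower. CYCS, which encodes cytochrome c, had 14904 counts with wild type, 1940 with the mutant and 3987 with GST (wild type over GST 3.53-fold, log2 1.82), and 0.85 remained with the fit removed. CASP2, an initiator caspase, was higher (log2 1.19), DIABLO, which antagonises inhibitors of apoptosis, was lower (log2 -1.71), and DFFA, the inhibitor of the apoptotic nuclease, was at -0.11. Against the mutant 3 were higher and 4 lower, beside 30.1% and 36.0% of all genes.

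Of the inhibitor of apoptosis (IAP) family, 3 of 6 measured genes were higher with wild type and 1 lower than with GST (median 1.03), and 4 higher and 1 lower than with the mutant (median 1.65). The shares of all genes as measured were 25.5% higher and 34.2% lower against GST, and 30.1% and 36.0% against the mutant. With the fit on GC content and length removed, 0 of the 6 were higher and 0 lower against GST (median 0.14), and 1 was higher and 1 lower against the mutant. BIRC2, a ubiquitin ligase of TNF signalling, had 3160 counts with wild type, 490 with the mutant and 909 with GST (wild type over GST 3.28-fold, log2 1.71; 0.74 with the fit removed). BIRC3, its close relative, was at log2 1.11 and XIAP, the caspase inhibitor, at 0.95, and both turned negative with the fit removed (-0.12 and -0.29). BIRC5, which encodes survivin, was lower (log2 -1.21; -0.64 with the fit removed). Among 9 measured genes of the death receptor pathway 3 were higher and 3 lower than with GST (median -0.22). Those counts are near the 25.5% and 34.2% of all genes as measured. In this pathway 2 were higher and 1 lower with the fit removed. TNFRSF10B, a TRAIL receptor, was higher (log2 1.27), but -5.31 with only transcripts annotated as protein-coding, TNFRSF1A, a TNF receptor, was lower (log2 -2.69), and CFLAR (log2 0.45), which restrains caspase-8, and RIPK1 (log2 -0.22) lay within 2-fold.

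Among 5 genes that act on the stability of MCL1 protein, 3 were higher with wild type and 1 lower than with GST (median 1.12). The shares of all genes as measured were 25.5% and 34.2%. With the fit on GC content and length removed 0 were higher and 1 lower (median 0.03). USP9X, a deubiquitinase that stabilises MCL1, was higher (log2 1.64; 0.63 with the fit removed), as was the mitochondrial ubiquitin ligase MARCH5 (log2 1.72; 0.54), while the MCL1 ligase HUWE1 was lower (log2 -1.54) and BTRC was at 0.31. Of the 3 VDAC channels of the outer membrane, VDAC2, which holds BAK in the membrane, had 44144 counts with wild type, 6186 with the mutant and 7030 with GST (wild type over GST 5.93-fold, log2 2.57, 2.53 to 2.60). VDAC1 (log2 0.55) and VDAC3 (log2 -0.83) lay within 2-fold.

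By the smallest distance in the log2 ratios to GST of wild type and mutant, among 9143 protein-coding genes with a mean of at least 100 counts, the genes nearest to MCL1 were LMBR1, QSER1 and CCDC117. Each had a wild-type ratio of 1.47, and 427 genes lay within 0.25 of MCL1. The genes nearest to BAX were NOTCH2NLA, ZNF511 and TCTN2, at wild-type ratios of -0.08, -0.18 and -0.14, and 42 genes lay within 0.25. This likeness rests on 3 libraries.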

How the data were processed

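RNA bound by GST, wild-type GST-ZFP36L1 or its Ala mutant was sequenced on a BGISEQ-500, per the labels, with 1 library each. The deposited estimated counts and TPM per transcript came from kallisto with hg19 as the named build, per the submitters' processing notes, which also name DESeq2 without its role. The sources used here give neither versions nor the transcript set. Effective lengths are identical in the 3 deposited tables.

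Of 196354 transcripts 181854 (92.62%) matched GENCODE 29 (GRCh38) by identifier, and 93.17% of those had the same length. The rest, 3.79% to 4.20% of counts, were left out. Estimated counts were summed per gene and rounded. Genes with a mean of at least 10 counts were kept. Libraries were scaled by TMM (edgeR 4.0.16, R 4.3.3; factors 1.05 for wild type, 0.932 for mutant, 1.03 for GST). Log2 ratios used a prior count of 0.5. Intervals (95%) are Clopper-Pearson on the split of both libraries' counts (scipy 1.17.1), single counts have exact Poisson intervals, and both cover counting error only. The script was tested on simulated data with counting error only and few genes changed. That does not test the scaling where many genes differ, as here. Alternatives were total counts, size factors from DESeq2 1.42.0, totals less the mitochondrial and 20 most abundant genes, log2(TPM + 0.5) for genes of mean TPM 1 or more, other minimum counts, protein-coding transcripts, a 1.5-fold limit and a cubic fit on GC content and length.

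The members and gene lists were chosen with earlier results of these data known. All members were named. From each list at most 4 measured genes with the most counts were named, and for MCL1 and BAX the 3 nearest genes.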

Additional observations from a re-analysis of the deposited data

How the results depend on the processing

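Under the 4 other scalings the members kept their calls for wild type over GST and mutant over GST, for the 9 or 10 members with a value. Against the mutant BCL2L1 lost its call with 2 of them, as given above. Scaling moved the median of all genes by up to 0.32 (wild type over mutant, totals without the most abundant genes). BCL2 has no value under a minimum mean TPM of 1 or a minimum of 100 counts, being below both. The difference of medians, anti-apoptotic minus pro-apoptotic, was 1.27 for wild type over GST, with 0.44 in TPM, 0.48 with a minimum of 100 counts and -0.42 under either fit on GC content and length. For wild type over mutant it was 2.52, with 1.38 in TPM, 1.21 with the minimum of 100, -0.35 with the fit and -0.30 with the fit on the transcript with most counts. Both settings without BCL2 rest on 2 anti-apoptotic genes.

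With the fit removed, 3 members were higher with wild type than with GST. Fewer of all measured genes were also called higher, and fewer lower, in that comparison than as measured. The shares of all genes given above are as measured, so they are no background for counts with the fit removed. Those counts, of the members and of the other gene lists, therefore show neither an excess nor a lack against all genes. Lower with wild type than with the mutant were 2 members (also with the fit on the transcript with most counts). With either fit 0 were higher and 0 lower for mutant over GST. For mutant over GST, 0 members were lower with protein-coding transcripts, and 3 were higher at 1.5-fold. Of 44 named genes, members included, 11 changed sign for wild type over GST and 9 for wild type over mutant with the fit removed, and 12 and 8 with the fit on the transcript with most counts. Those called at 2-fold as measured were BAD (0.28; 0.37 with most counts) and BIRC3 (-0.12; -0.06) for wild type over GST, and BCL2L1 (0.35; 0.40), BNIP3L (-0.52; -0.44), BIRC3 (-0.49; -0.40), USP9X (-0.07), QSER1 (-0.11) and ZNF511 (1.64; 1.77) for wild type over mutant. BCL2L12 turned to 0.57 and 0.53 with most counts. Those within 2-fold as measured were BCL2L1 (0.58), BAX (2.08), XIAP (-0.29), BNIP3L (-0.63), BIK (0.81), BTRC (-0.37), CFLAR (-0.02), NOTCH2NLA (0.42) and ZNF511 (1.90) for wild type over GST, and BAX (1.84), BIK (1.23) and CFLAR (-0.17) for wild type over mutant. TNFRSF10B was -5.31 and -7.05 with protein-coding transcripts. The cause was not tested.

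Over all genes, mutant over GST had 1268 higher and 722 lower. Higher were 778 with totals without the most abundant genes, 548 in TPM, 581 with a minimum of 100, 676 and 679 with the fits, and 2627 at 1.5-fold. Lower were 1237 with those totals, 1167 with no minimum, 362 with a minimum of 100 and 1829 at 1.5-fold. The fit on the transcript with most counts and the role of BCL2L1-202 in the TPM sums were chosen after seeing the data. No paired analysis was possible because each pull-down has 1 library. Depth limits BCL2, BBC3 and BAK1, with 12 to 92 counts with wild type.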
